A study of Mus musculus with 8 samples.

Results

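Nodal, Lefty1, Lefty2, Tdgf1, Foxh1, Acvr1b, Acvr2b and Smad2 are 8 genes of the Nodal signalling pathway, listed by name. They were followed through a poly(A) RNA sequencing study of mouse embryonic stem cells and of the Sca1-sorted cells that were derived from them. The 8 genes are among 23483 genes in the deposited table and occupy 9 of its 29614 transcript rows. For each gene the RefSeq transcript row with the highest total count was used. Only Smad2 had a second row, and its total count of 3273 was close to the 3367 of the row used.

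Nodal is a secreted ligand of the TGF-beta family that keeps the epiblast from differentiating early and later patterns the primitive streak and the left-right axis. It binds a type II receptor (Acvr2b is one) and the type I receptor Acvr1b, also called ALK4, and it needs the membrane-anchored co-receptor Tdgf1, also called Cripto. The activated receptor phosphorylates Smad2, which enters the nucleus and acts on DNA with Foxh1. Lefty1 and Lefty2 are secreted inhibitors that bind Nodal or its co-receptor, and since both are themselves targets of the pathway they form a feedback loop with Nodal.

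The cells were C57BL/6 mouse cells kept in 5.5 mM glucose, in 4 groups of 2 libraries. Undifferentiated embryonic stem cells grown with LIF, the cytokine that holds them in that state, are called mESC. Untreated Sca1 cells came from a culture left without LIF for 4 days on gelatin, were sorted on magnetic columns with an antibody to Sca1 to a stated purity above 80%, and were then grown without LIF. NTC cells were Sca1 cells that carried a lentivirus with a non-target shRNA, a hairpin directed at no gene, and that were selected in puromycin at 1 µg/ml. Knock-down cells were Sca1 cells given, in its place, a shRNA against Set7, the histone and protein lysine methyltransferase encoded by Setd7. So the NTC and knock-down cells share the virus and the selection, and all 3 Sca1 groups share the sort. The labels do not say that the 2 libraries of a group came from separate cultures, so the p-values measure only the spread between these libraries, which may be technical.

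The counts assigned to genes, with 1 transcript row for each gene, summed to between 2507938 and 5080266 in a library. Levels are given as CPM, the count scaled to a library of fixed size, after TMM scaling, a factor for each library that sets the bulk of genes level, and log2 differences come from an edgeR quasi-likelihood fit to the counts of all 8 libraries. Setd7 stood at 14.0 and 10.8 CPM in the knock-down libraries and at 60.7 and 66.6 CPM in the NTC libraries, a log2 change of -2.39 ± 0.20 (SE, adjusted p = 1.71e-07). Ly6a, which encodes the sort marker Sca1, lay between 4.42 and 13.0 CPM in every library, and its log2 difference between untreated Sca1 cells and mESC was 0.24 ± 0.39 (adjusted p = 0.671): the libraries of the sorted and the stem cells overlapped in the RNA of the sort marker. Summed stem cell markers remained high in the Sca1 groups, at 2572 to 2952 CPM in the untreated, 2704 to 2763 CPM in the NTC and 3410 to 3641 CPM in the knock-down libraries, against 3791 to 4424 CPM in mESC.

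The genes lie on 5 chromosomes, and their coordinates are those of RefSeq on GRCm38.p6; the build the reads were mapped to is not given in the sources used here. Lefty2 (chr1:180893108-180899107) and Lefty1 (chr1:180935022-180938401) are neighbours on the plus strand, 35914 bases apart. Nodal is at chr10:61417972-61425338, Tdgf1 at chr9:110939608-110946158 and Acvr2b at chr9:119401583-119442148. Foxh1 (chr15:76667829-76671614) and Acvr1b (chr15:101174072-101213684) share chromosome 15. In the GENCODE vM21 annotation, no exon of another gene overlapped an exon of any of the 8. The annotation and strand setting behind the counts are not given, so reads from a neighbour were not excluded by this check.

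Lefty1 and Lefty2 are near copies of each other, and their reads can be told apart only where their sequences differ. Over the coding sequence, 1104 bases in each, 1014 bases were identical and 90 differed, an identity of 91.8% without a gap (GENCODE vM21 transcripts on GRCm38). The 2 sequences below show the coding window in which the pair differs most, with 18 differences in the 60 bases from position 34 to 93 (counted from 1 at the A of the start codon). Capitals mark the bases that differ.
Lefty1: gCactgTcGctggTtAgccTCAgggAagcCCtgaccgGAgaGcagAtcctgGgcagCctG
Lefty2: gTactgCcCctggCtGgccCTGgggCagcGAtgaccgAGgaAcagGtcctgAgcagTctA
Of all 36-base windows of the transcripts, 23.0% of those of Lefty1 and 15.0% of those of Lefty2 also occurred in the other gene, 365 windows in all. How the authors' counting treated reads from such windows is not given in the sources used here, so the split of counts between the 2 genes is uncertain to that extent. Tdgf1 shared 16.1% of its 36-base windows with its pseudogene Tdgf1-ps1. Nodal, Foxh1, Acvr1b and Acvr2b shared none with another annotated transcript.

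Between mESC and untreated Sca1 cells the largest changes among the 8 genes were in an inhibitor and the co-receptor. Lefty1 rose 4.07-fold and Tdgf1 fell 3.63-fold, Foxh1 rose and Acvr1b fell by less, and Nodal, Lefty2, Acvr2b and Smad2 did not pass the test. That is 2 genes higher and 2 lower out of 8, where 35.5% of the 13966 tested genes were called at an adjusted p under 0.05 (18.7% higher, 16.8% lower). The median log2 change of the 8 genes was -0.02, and that of all tested genes was -0.01. In 4 of the 8 genes the 2 groups did not overlap, against 62.7% of all genes. The comparison asks how the pathway's genes differ between stem cells and the Sca1 cells that came from them. In bulk RNA, fewer cells of a type and less RNA per cell cannot be told apart, and this holds for each comparison here.

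**Figure D1:**
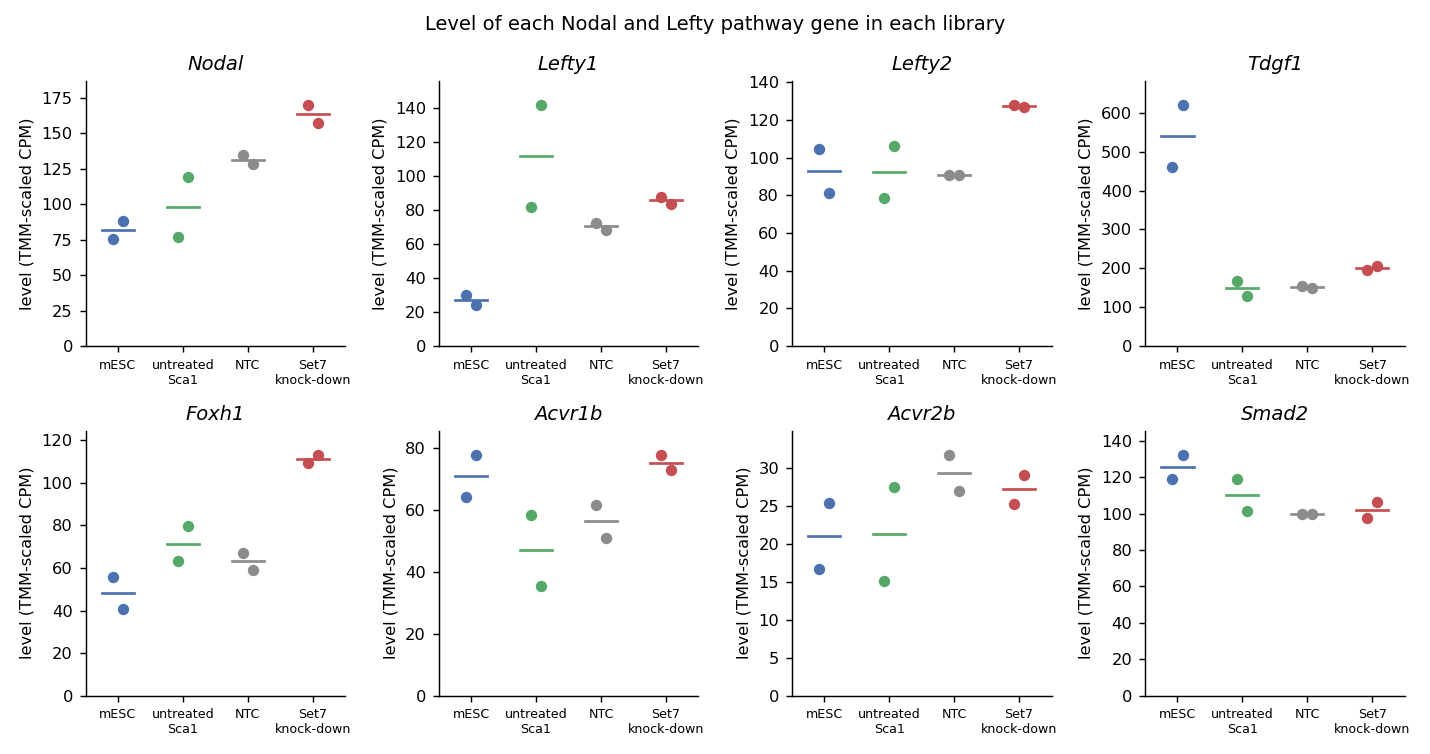
Level of each of the 8 genes (vertical axis, TMM-scaled CPM from 0) in each library (points) of mESC, untreated Sca1, NTC and Set7 knock-down cells; the line is the mean of the 2 libraries. Tdgf1 is highest in the 2 mESC libraries (462 and 620 CPM), Lefty1 is lowest there (29.8 and 24.4 CPM), and Foxh1 is highest in the 2 knock-down libraries (109 and 113 CPM).

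Nodal, the ligand, measured 75.6 and 87.8 CPM in mESC, 77.0 and 119 CPM in untreated Sca1, 135 and 128 CPM in NTC and 170 and 157 CPM in knock-down cells. The 2 lower groups overlapped, and every NTC and knock-down library lay above every mESC and untreated library. The log2 difference of 0.25 ± 0.17 between untreated Sca1 cells and mESC did not pass the test (adjusted p = 0.265). It was 0.55 without untreated replicate 1 and -0.081 without untreated replicate 2. No step between neighbours in this order passed the test, while the wider intervals did. Nodal was higher than in mESC by 0.69 ± 0.16 log2 in NTC (adjusted p = 0.00248) and by 1.00 ± 0.16 in the knock-down (adjusted p = 0.000148), and higher in the knock-down than in untreated Sca1 cells by 0.75 ± 0.16 (adjusted p = 0.00371).

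Lefty1, the first of the 2 inhibitors, measured 29.8 and 24.4 CPM in mESC, 81.9 and 142 CPM in untreated Sca1, 72.3 and 68.4 CPM in NTC and 87.9 and 83.5 CPM in knock-down cells. The mESC libraries were below all 6 Sca1 libraries. The rise from mESC to untreated Sca1 cells was 2.03 ± 0.21 log2 (adjusted p = 1.33e-06), with 1.46 and 2.54 between libraries that carry the same code in the labels (34 and 56). Lefty1 was also higher than in mESC by 1.38 ± 0.21 in NTC cells (adjusted p = 7.04e-05) and by 1.66 ± 0.21 in knock-down cells (adjusted p = 2.09e-05). Among the 3 Sca1 groups no neighbouring step passed.

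Lefty2, the other inhibitor, measured 105 and 81.4 CPM in mESC, 78.8 and 106 CPM in untreated Sca1, 90.5 and 90.9 CPM in NTC and 128 and 127 CPM in knock-down cells. The first 3 groups overlapped around means of 93.0 ± 16.4, 92.4 ± 19.3 and 90.7 ± 0.299 CPM (SD, n = 2 each), and the knock-down libraries stood above all others. The difference between untreated Sca1 cells and mESC did not pass (-0.02 ± 0.15, adjusted p = 0.931), and the values within library codes 34 and 56 had opposite signs, -0.41 and 0.38. The knock-down was higher than mESC by 0.45 ± 0.15 (adjusted p = 0.0302) and than untreated Sca1 cells by 0.47 ± 0.15 (adjusted p = 0.0401).

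The ratio of Lefty1 to Lefty2 was lower in both mESC libraries than in all 6 Sca1 libraries. The count of Lefty1 divided by that of Lefty2 was 0.284 and 0.300 in the mESC libraries, 1.04 and 1.34 in untreated Sca1, 0.799 and 0.752 in NTC and 0.688 and 0.660 in knock-down libraries. In counts, Lefty1 exceeded Lefty2 only in the 2 untreated Sca1 libraries, with 265 against 255 and 321 against 240 counts. The mean log2 ratio was -1.78 over the 2 mESC libraries and -0.23 over the 6 Sca1 libraries, a difference of 1.54. An exact two-sided permutation test gave p = 0.0714, the smallest that 2 against 6 libraries allow. This grouping was chosen after the ratios were seen and pools 3 different Sca1 groups. The test therefore adds nothing to the ratios themselves. For the 2 untreated against the 2 mESC libraries alone, the difference was 2.01 and the exact permutation p was 0.333, again the smallest possible. Per kilobase of transcript, a rough scale for levels of different genes, Lefty1 and Lefty2 stood at 16.7 and 37.6 CPM per kb in mESC. They stood at 69.0 and 37.4 CPM per kb in untreated Sca1, at 43.4 and 36.7 CPM per kb in NTC and at 52.9 and 51.4 CPM per kb in knock-down cells. On this scale the mean of Lefty1 was above that of Lefty2 in all 3 Sca1 groups, by little in the knock-down. In NTC and knock-down cells this order is the reverse of that in counts. It rests on the lengths of GENCODE transcripts and on an unknown handling of reads shared by the 2 genes.

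**Figure D2:**
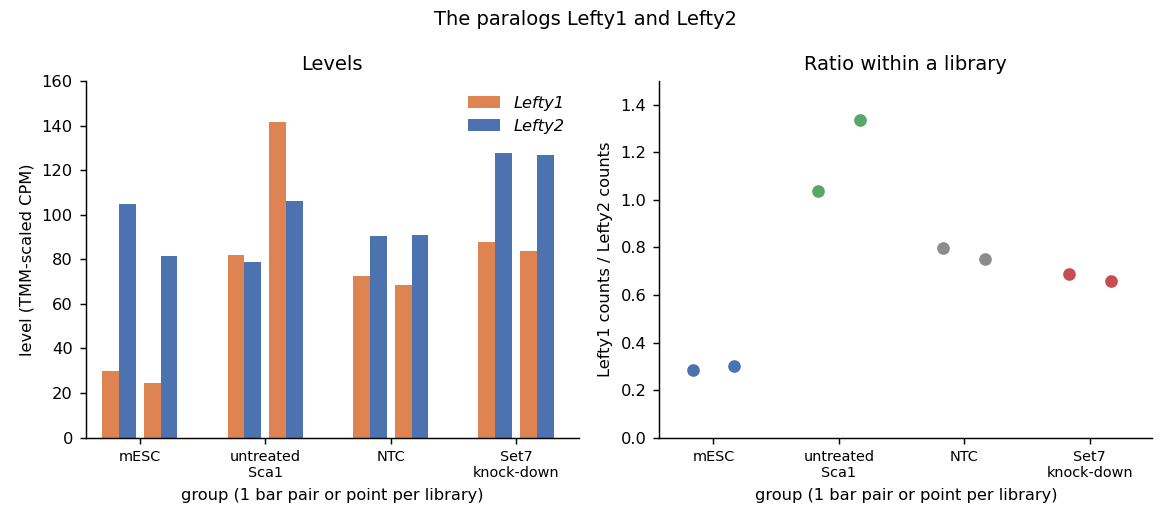
Left, levels of Lefty1 and Lefty2 (vertical axis, TMM-scaled CPM) in each library, 1 pair of bars per library; right, the Lefty1 count divided by the Lefty2 count (vertical axis, a ratio without unit) in each library (points). The ratio lies at 0.284 and 0.300 in the mESC libraries and between 0.660 and 1.34 in the 6 Sca1 libraries.

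Tdgf1, the co-receptor, measured 462 and 620 CPM in mESC, 167 and 129 CPM in untreated Sca1, 153 and 149 CPM in NTC and 196 and 205 CPM in knock-down cells. The mESC libraries were far above the 6 Sca1 libraries, and the untreated and NTC libraries overlapped. The fall from mESC to untreated Sca1 cells was -1.86 ± 0.15 log2 (adjusted p = 3.69e-08), with -1.47 and -2.26 within library codes 34 and 56. It was -1.84 ± 0.15 in NTC (adjusted p = 2.68e-08) and -1.43 ± 0.15 in knock-down cells (adjusted p = 1.32e-06). Tdgf1 had the highest mean of the 8 genes per kilobase in every group. It was 280 CPM per kb in mESC and 76.8, 78.1 and 104 CPM per kb in untreated, NTC and knock-down cells. In untreated cells the mean of Lefty1 was close, at 69.0 CPM per kb. In untreated replicate 2, Lefty1 was above Tdgf1 (142 against 129 CPM), on a shorter transcript.

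Acvr1b, the type I receptor, measured 64.1 and 77.7 CPM in mESC, 58.4 and 35.3 CPM in untreated Sca1, 61.5 and 51.0 CPM in NTC and 77.8 and 72.8 CPM in knock-down cells. The untreated libraries were both below the mESC libraries but far from each other. The fall in untreated Sca1 cells was -0.57 ± 0.19 log2 (adjusted p = 0.0271); within codes 34 and 56 it was -0.13 and -1.14, and the call was lost without mESC replicate 2 (adjusted p = 0.151), without untreated replicate 2 (0.290), without knock-down replicate 1 (0.0541) or 2 (0.0533), with library totals in place of TMM factors (0.0940), in a fit of the 4 libraries compared (0.0666) and with DESeq2 (0.0516). Acvr2b, the type II receptor, measured 16.7 and 25.3, 15.1 and 27.4, 31.7 and 27.0, and 25.2 and 29.0 CPM in mESC, untreated, NTC and knock-down cells, and no pair of groups passed the test. Per kilobase, Acvr1b stood between 10.6 and 17.03 and Acvr2b between 10.0 and 14.0 CPM per kb over the 4 groups.

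Smad2, the transducer, had group means within a narrow range, 99.8 to 126 CPM. It measured 119 and 132 CPM in mESC, 119 and 102 CPM in untreated Sca1, 99.7 and 99.9 CPM in NTC and 97.7 and 106 CPM in knock-down cells. Its highest group mean was that of mESC, 126 ± 9.50 CPM (SD, n = 2), and the sole pair of groups that passed was NTC against mESC, at -0.33 ± 0.12 log2 (adjusted p = 0.0448).

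Foxh1, the DNA-binding partner of Smad2, measured 55.9 and 40.9 CPM in mESC, 63.4 and 79.5 CPM in untreated Sca1, 67.1 and 59.1 CPM in NTC and 109 and 113 CPM in knock-down cells. Untreated libraries were both above the mESC libraries, and the knock-down libraries were above all others. The rise from mESC to untreated Sca1 cells was 0.55 ± 0.17 log2 (adjusted p = 0.0154); within codes 34 and 56 it was 0.18 and 0.96, and the call was lost without mESC replicate 2 (adjusted p = 0.118), without untreated replicate 2 (0.146) and when only the 4 libraries of the 2 groups were fitted (0.0531). The knock-down exceeded mESC by 1.20 ± 0.16 (adjusted p = 2.28e-05), where the median of its chromosome was 0.48. It exceeded untreated Sca1 cells by 0.65 ± 0.16 (adjusted p = 0.00917), where the median of the chromosome was 0.36.

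In the knock-down against NTC, the comparison for the loss of Set7, Foxh1 rose 1.77-fold and Lefty2 1.40-fold, and the other 6 genes did not pass. So 2 of 8 genes were higher and 0 lower, where 14.3% of all genes tested were called (4.25% higher, 10.1% lower). At an unadjusted p under 0.05, 4 genes were higher and 0 lower, and DESeq2 also called 0 lower. The median log2 difference of the 8 genes was 0.36, against 0.00 over all genes tested. In 6 of the 8 genes the knock-down libraries did not overlap the NTC libraries, and the same held for 64.0% of all genes.

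Foxh1 differed by 0.82 ± 0.15 log2 (adjusted p = 0.00132 by edgeR), with 0.70 and 0.94 within library codes 12 and 34. This call was kept in each of the 17 alternative settings run, with a highest adjusted p of 0.0472. Lefty2 differed by 0.49 ± 0.15 (adjusted p = 0.0332), with 0.50 and 0.48 within codes. Its call was lost without any one of the 4 NTC and knock-down libraries, with adjusted p-values of 0.204, 0.187, 0.185 and 0.208, with library totals in place of TMM factors (0.116) and with DESeq2 (0.0640).

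For the other genes the differences were 0.31 ± 0.15 for Nodal (adjusted p = 0.203), 0.28 ± 0.19 for Lefty1 (0.378), 0.41 ± 0.15 for Tdgf1 (0.0702), 0.42 ± 0.18 for Acvr1b (0.145), -0.10 ± 0.24 for Acvr2b (0.839) and 0.03 ± 0.13 for Smad2 (0.901). The knock-down libraries of Nodal, Lefty1, Tdgf1 and Acvr1b each lay above both NTC libraries. The fit shares 1 estimate of the spread with the mESC and untreated libraries, whose replicates differed more (chi-square per degree of freedom of 54.4 and 40.3, against 1.54 for NTC and 2.08 for the knock-down). A fit of the 4 NTC and knock-down libraries alone called 6 of the 8 genes higher, with Nodal at an adjusted p of 0.00173, Lefty1 at 0.0187, Tdgf1 at 1.67e-05 and Acvr1b at 0.00178, and it called 4416 genes in all, 32.7% of those it tested, against 1998 in the fit of all libraries.

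**Figure D3:**
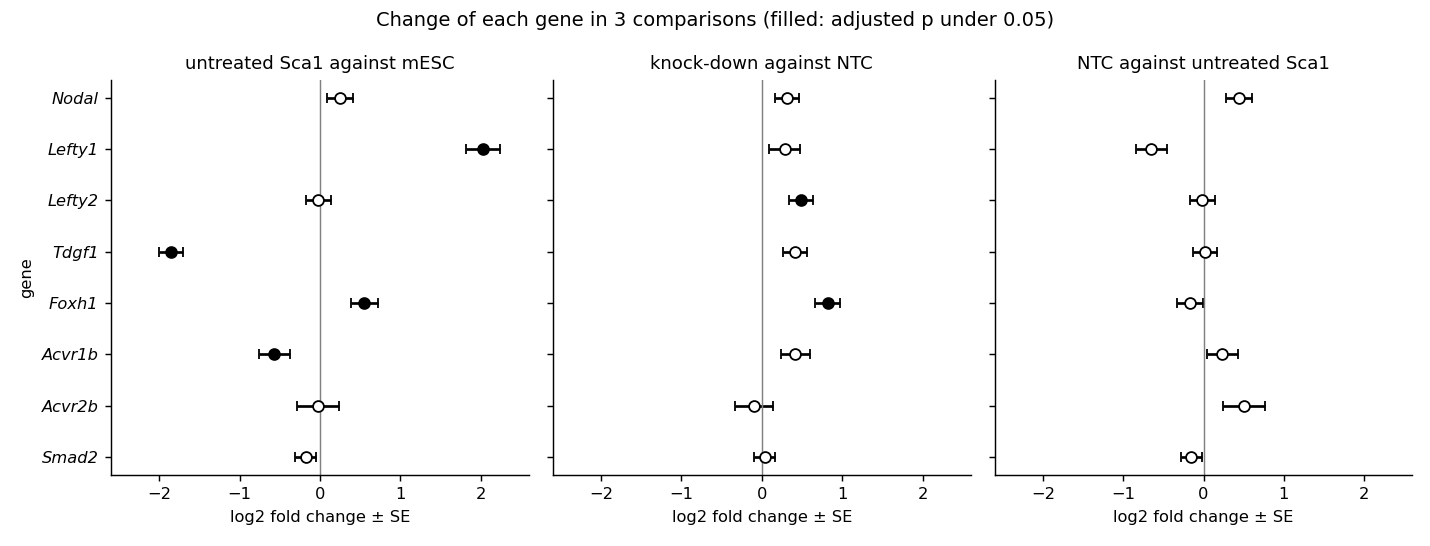
Log2 fold change (horizontal axis, points; bars are ± 1 SE of the edgeR fit) of each of the 8 genes for the untreated cells against mESC (left), the knock-down against NTC (middle) and NTC against the untreated cells (right). Filled points have an adjusted p under 0.05: Lefty1, Tdgf1, Foxh1 and Acvr1b in the first panel, Lefty2 and Foxh1 in the second, and none in the third.

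Most genes of chromosome 15, which carries Foxh1 and Acvr1b, were above NTC in the knock-down cells. Of its 425 genes with a mean of at least 10 CPM, 85.2% had a log2 difference above 0 and 40.2% were called higher, and the median was 0.41. The medians of the other autosomes and of X lay between -0.16 and 0.05. The 3 genes of chromosome Y at that level were all called lower, with a median of -2.50; none of the 8 genes lies there. Foxh1 stood 0.41 above the chromosome's median, with 24 of the 425 genes higher than it. Acvr1b stood 0.01 above that median, with 207 of the 425 higher. Chromosome 15 had a median of 0.48 in knock-down against mESC, with 53.9% of its genes called higher, of 0.36 in knock-down against untreated Sca1 cells and of -0.05 in NTC against untreated Sca1 cells. Its part in the differences of Foxh1 and Acvr1b was not tested. Lefty2 lies on chromosome 1, whose median was 0.02.

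**Figure D4:**
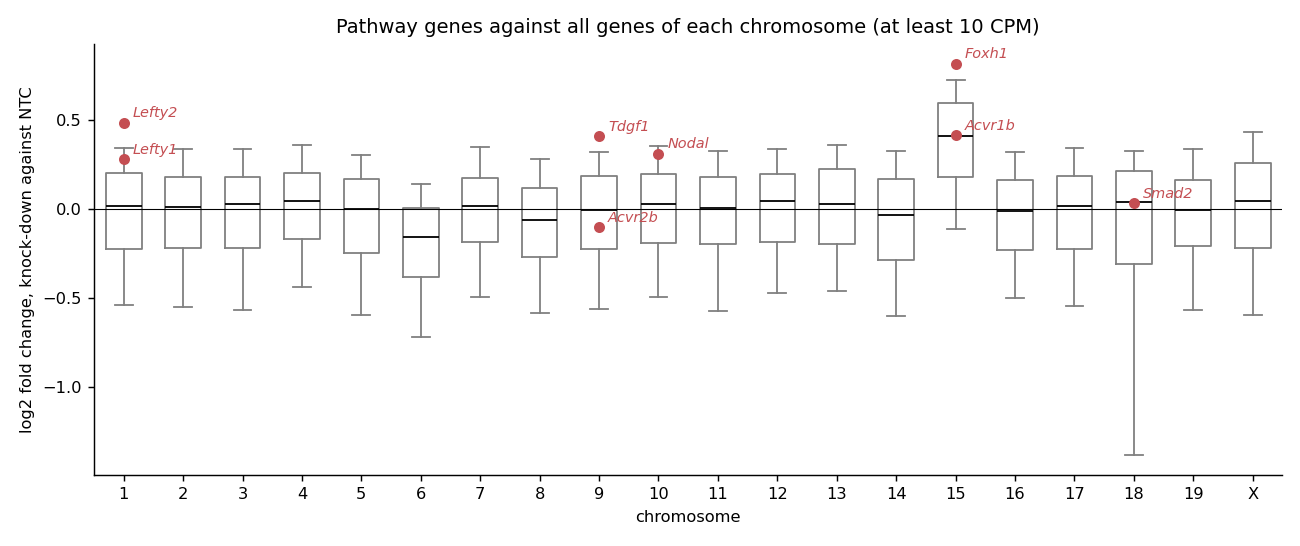
Log2 difference of knock-down against NTC (vertical axis) for all genes with a mean of at least 10 CPM, by chromosome (horizontal axis). Boxes span the quartiles with the median as a line, whiskers the 10th to 90th percentile, and red points are the 8 pathway genes; the median of chromosome 15 is 0.41 and those of the other autosomes and X are between -0.16 and 0.05.

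The cell type markers also moved between these groups. In the knock-down against NTC, 4.25% of all tested genes were called higher and 10.1% lower. These shares were 18.7% and 16.8% in untreated Sca1 cells against mESC, and 3.88% and 1.11% in NTC against untreated Sca1 cells. Of 10 tested mesenchymal and fibroblast markers, 9 were lower in the knock-down than in NTC, and the summed level of the 11 on the list was 323 to 324 CPM in the knock-down, with 1 marker at 0, against 2480 to 2534 CPM in NTC, with none at 0. Of the 10 stem cell markers 2, Utf1 and Sox2, were higher in the knock-down, with sums of 3410 to 3641 against 2704 to 2763 CPM. Between mESC and untreated Sca1 cells, 7 of 10 stem cell markers fell, 8 of 10 tested mesenchymal markers rose and 1 fell, and all 8 primed epiblast markers rose (486 to 560 CPM in mESC, 793 to 1196 CPM in untreated). Summed visceral endoderm markers stood at 781 to 830 CPM in mESC and at 190 to 265 CPM in untreated Sca1 cells, with 4 of the 8 tested lower. In NTC against untreated Sca1 cells, 5 of 10 tested mesenchymal markers were higher (2480 to 2534 CPM against 1470 to 1602 CPM in sum), and 2 of 8 tested visceral endoderm markers were higher (455 to 460 CPM against 190 to 265 CPM). These 2 were Cubn and Amn. Cubn was the largest part of the sum, with means of 498, 101 and 320 CPM in mESC, untreated and NTC cells. Gata4 stood at 44.5 CPM in NTC and 44.7 CPM in untreated cells. The part of these markers in the differences of the pathway genes was not tested.

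NTC and untreated Sca1 cells differ by the virus, the non-target hairpin, the selection and, in part, the library code. The codes were 34 and 56 for mESC and untreated Sca1, and 12 and 34 for NTC and knock-down. Between these sets, the group difference and the library code cannot be fully told apart. Within code 34, NTC against untreated Sca1 was 0.74 log2 for Nodal, -0.26 for Lefty1 and 0.83 for Acvr2b. For NTC against untreated Sca1 cells, edgeR called 0 of the 8 genes in either direction. Of all genes, 4.99% were called (3.88% higher, 1.11% lower). At an unadjusted p under 0.05, Nodal was higher and Lefty1 lower, and DESeq2 also called 0. Nodal differed by 0.44 ± 0.16 log2 (adjusted p = 0.128), Lefty1 by -0.65 ± 0.19 (adjusted p = 0.0614) and Acvr2b by 0.50 ± 0.26 (adjusted p = 0.281), and in 3 of the 8 genes the libraries of the groups did not overlap (53.4% of all genes). Without untreated replicate 1, Lefty1 was called lower (adjusted p = 0.00414), and without untreated replicate 2, Nodal was called higher (adjusted p = 0.0176). With the library code as a block, Nodal (0.61, adjusted p = 0.00821) and Acvr2b (0.85, adjusted p = 0.0279) were called higher, and with no filter on low counts Nodal was called higher (adjusted p = 0.0295) and Lefty1 lower (adjusted p = 0.00119). This comparison shares its NTC libraries with the knock-down comparison and its untreated libraries with the mESC comparison, so the signs of the 3 are not independent.

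Over all 6 pairs of groups, 19 of the 48 differences of the 8 genes were called. Of all tested genes, between 4.99% and 35.5% were called in a pair. The 6 pairs reuse the same 4 group means, so these differences are not independent. Against mESC, the knock-down had 4 genes higher (Nodal, Lefty1, Lefty2, Foxh1) and 1 lower (Tdgf1), where 25.9% of all genes were called (13.5% higher, 12.4% lower), and NTC had 2 higher (Nodal, Lefty1) and 2 lower (Tdgf1, Smad2), where 35.1% were called (19.6% higher, 15.5% lower). Against untreated Sca1 cells the knock-down had 4 genes higher (Nodal, Lefty2, Foxh1, Acvr1b), where 17.2% of genes were called (7.34% higher, 9.89% lower). Of these, Foxh1 and Acvr1b lie on chromosome 15, where 35.5% of the 425 genes with at least 10 CPM were called higher. Of those 425 genes, 84 lay above Foxh1 and 85 above Acvr1b. The step between neighbouring group means passed for Lefty1 from mESC to NTC, for Lefty2 from mESC to the knock-down, for Tdgf1 from the knock-down to mESC and for Foxh1 from untreated Sca1 to the knock-down. No neighbouring step passed for Nodal, Acvr1b, Acvr2b or Smad2.

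The other genes of the pathway were followed in 5 lists. Their counts are to be read beside the shares of all tested genes. From mESC to untreated Sca1 cells, 18.7% of all tested genes were called higher and 16.8% lower. These shares were 4.25% and 10.1% in the knock-down against NTC, and 3.88% and 1.11% in NTC against untreated Sca1 cells. Among 6 tested ligands and processing enzymes, 1 rose and 3 fell from mESC to untreated Sca1 cells. The log2 change was -2.14 ± 0.28 for Inhbb, the activin B subunit (adjusted p = 1.31e-05), -0.95 ± 0.15 for Pcsk6, a convertase that cleaves Nodal (0.000104), -0.67 ± 0.17 for the ligand Gdf3 (0.00434) and 1.38 ± 0.26 for the convertase Pcsk5 (0.000557). Gdf3 lost the call without untreated replicate 1 (0.0956). In the knock-down against NTC, 3 of the 6 fell, and the list median was -0.76. The log2 change was -0.97 ± 0.14 for Furin, another convertase that acts on Nodal (adjusted p = 0.000125), -1.61 ± 0.24 for Pcsk5 (0.000134) and -1.80 ± 0.42 for Inhbb (0.00752). The last call was lost without NTC replicate 1, knock-down replicate 1 or knock-down replicate 2. Furin had means of 55.4, 84.1 and 43.1 CPM in untreated Sca1, NTC and knock-down cells. In the knock-down against untreated Sca1 cells, Furin did not pass (-0.38 ± 0.15, adjusted p = 0.102). Pcsk5 (-1.03 ± 0.26, 0.0123) and Inhbb (-1.97 ± 0.44, 0.00504) were called lower there too. Inhba, the activin A subunit, was too low to test. It had 19 counts in untreated Sca1 libraries (14 and 5) and 0 in mESC libraries. It had 13 counts in NTC and 0 in knock-down libraries. Set against a floor of 3 counts over the group at 0, the folds were 10.3 and 3.68. These folds leave out the counting error of the 19 and 13, so they are not lower bounds.

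Of 7 tested genes on the inhibitor list, 2 rose and 2 fell from mESC to untreated Sca1 cells (18.7% and 16.8% of all tested genes). The list is labelled extracellular inhibitors, though Ncln and Nomo1 encode membrane proteins inside the cell. Follistatin, Fst, which traps activins, rose by 3.03 ± 0.35 log2 (adjusted p = 3.45e-05) and Fstl1 by 1.61 ± 0.12 (2.55e-08), while Ncln and Nomo1, which form a complex that antagonises Nodal, fell, with log2 changes of -0.38 ± 0.12 (0.0169) and -0.30 ± 0.11 (0.0435). Ncln lost that call without either untreated library (0.0652 and 0.0506), and Nomo1 lost it in 6 of the 8 fits that left out 1 library (highest adjusted p 0.189). In the knock-down against NTC 2 of the 7 fell, Fstl1 with -0.84 ± 0.12 (adjusted p = 7.36e-05) and Ncln with -0.42 ± 0.11 (0.0195), and the list median was -0.40. Against untreated Sca1 cells, Fstl1 was also lower (-0.45 ± 0.12, adjusted p = 0.0162), and Ncln did not pass (0.22 ± 0.12, 0.236). The call of Ncln was lost without any one of the NTC (0.276 and 0.0676) or knock-down libraries (0.173 and 0.151). In NTC against untreated Sca1 cells Nomo1 and Ncln rose, by 0.75 ± 0.11 (adjusted p = 0.00108) and 0.63 ± 0.12 (0.00487), the latter lost without NTC replicate 1 (0.150). Cer1, the antagonist Cerberus, had 0 counts in all 8 libraries, which allows up to 0.0983 CPM over them. Of the receptor list only Acvr2a and Tgfbr3 could be tested, and the betaglycan gene Tgfbr3 rose by 1.45 ± 0.26 (adjusted p = 0.000270) in untreated Sca1 cells. The Nodal receptor Acvr1c (ALK7) had 7 counts in all libraries together and the co-receptor Cfc1 (Cryptic) had 26.

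Among 18 Smads, partners and nuclear regulators, 8 rose and 1 fell from mESC to untreated Sca1 cells. Of all tested genes, 18.7% rose and 16.8% fell, and the list median was 0.37. Smad3, the other receptor-activated Smad of the pathway, rose by 1.91 ± 0.19 log2 (adjusted p = 4.51e-07), the feedback repressor Skil by 1.54 ± 0.15 (3.10e-07) and Gtf2i by 0.93 ± 0.12 (1.15e-05). In the knock-down against untreated Sca1 cells, Smad3 and Gtf2i were called lower, and Eomes and Dact2 were not called. Eomes had means of 24.7, 10.9 and 22.5 CPM in untreated Sca1, NTC and knock-down cells. Against NTC, Eomes and Dact2 were higher in the knock-down, by 1.08 ± 0.27 (adjusted p = 0.0126) and 0.59 ± 0.19 (0.0461). Smad3 and Gtf2i were lower than in NTC, by -0.53 ± 0.17 (0.0401) and -0.38 ± 0.12 (0.0412). Smad3, Gtf2i and Dact2 each lost the call without any one of the NTC or knock-down libraries, with adjusted p-values of up to 0.353, 0.381 and 0.352, and Eomes lost it without NTC replicate 1 (0.160), NTC replicate 2 (0.0565) or knock-down replicate 2 (0.312).

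Of 17 tested target genes, 9 rose and 1 fell from mESC to untreated Sca1 cells (18.7% and 16.8% of all tested genes). The list median was 1.22. Skil, Mixl1, Pmepa1 and Eomes are on this and the preceding list. The target list was set by name, and whether its genes respond to Nodal in these cells was not tested. Wnt3, which acts in the primitive streak, rose by 4.52 ± 0.39 log2 (adjusted p = 8.03e-08). Fgf8 had 143 counts in untreated Sca1 and 3 in mESC libraries, a ratio of 77.2 (exact 95% counting interval 25.9 to 379), and the homeobox gene Mixl1 had 77 and 3, a ratio of 41.6 (13.7 to 206). Nanog, also on the target list, did not pass (-0.06 ± 0.12, adjusted p = 0.763). In the knock-down against NTC, 1 target rose and 3 fell (4.25% and 10.1% of all tested genes), and the list median was 0.02. Eomes was the one that rose, while the log2 change was -0.99 ± 0.18 for Id1 (adjusted p = 0.00107) and -1.35 ± 0.31 for the chemokine receptor gene Cxcr4 (0.00646). Id1 lost the call without knock-down replicate 2 (0.0597), and Cxcr4 lost it without NTC replicate 1 (0.0633), NTC replicate 2 (0.0627) or knock-down replicate 2 (0.210) and with DESeq2 (0.0638). In the knock-down against untreated Sca1 cells, Id1 was also called lower, and Eomes and Cxcr4 were not called. In NTC against untreated Sca1 cells Pcsk6 and Furin were higher, by 0.66 ± 0.15 (adjusted p = 0.0185) and 0.60 ± 0.14 (0.0225), and 2 of the 17 target genes were lower, Fgf5 by -2.55 ± 0.61 (0.0243) and Eomes by -1.14 ± 0.28 (0.0266). Each of the 4 lost the call in 5 of the 8 fits that left out 1 library, with adjusted p-values of up to 0.214, 0.246, 0.295 and 0.281 for Pcsk6, Furin, Fgf5 and Eomes.

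**Figure D5:**
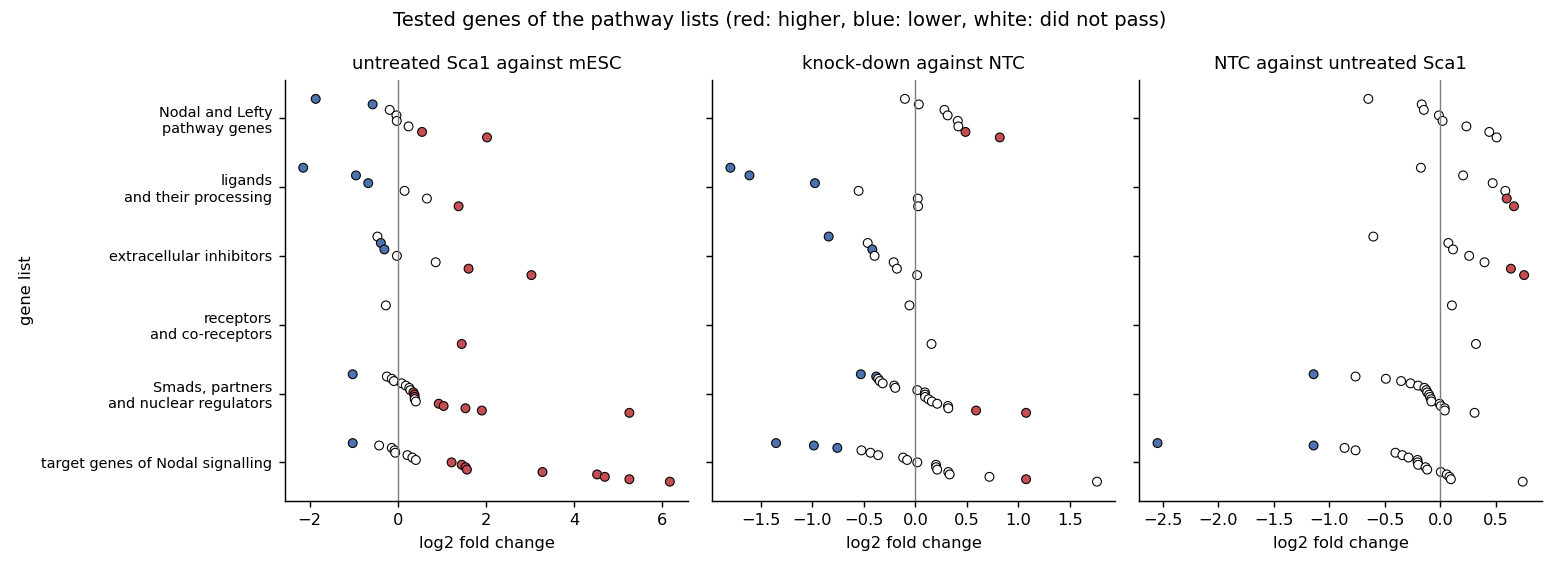
Log2 fold change (horizontal axis) of every tested gene of the 8 pathway genes and of the 5 lists (rows), in 3 comparisons; red points were called higher, blue lower and white points did not pass. Of the 17 tested target genes, 9 are red in untreated Sca1 against mESC and 1 in knock-down against NTC. Of all tested genes, 18.7% and 4.25% were called higher in these comparisons. Fgf8, Mixl1 and Fgf5 rest on 3 counts each in mESC.

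The genes whose log2 CPM ran most like each of the 8 over the 8 libraries were taken from 8507 candidates with a mean of at least 20 CPM. These correlations are descriptions that share the same 4 group means and the same library scaling. Lefty1 was nearest to Kcnk1 (Pearson r = 0.991), Hmgn5 (0.990) and Nkx1-2 (0.989), Tdgf1 to Ppm1j (0.997), Morc1 (0.992) and Arid5b (0.991), and Nodal to Enpp3 (0.987), Uaca (0.983) and Adgrb2 (0.979). Foxh1 was nearest to Zfp428 (0.980), Ptgr1 and Galm (0.973 each), and Lefty2 to Wdr74 (0.951), Nsfl1c (0.946) and Smg9 (0.935). Kcnk1 had group means of 5.28, 45.4, 27.8 and 33.3 CPM in mESC, untreated, NTC and knock-down cells, the order of Lefty1, and Ppm1j had 58.8, 10.2, 11.3 and 15.4 CPM, the order of Tdgf1. Acvr1b was nearest to Prpf38b (0.977), Acvr2b to Slc12a2 (0.976) and Smad2 to Trim44 (0.974). Among the 8 genes themselves, Lefty1 and Tdgf1 ran opposite to each other (r = -0.93).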

How the data were processed

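The 8 poly(A) libraries were read on a Genome Analyzer IIx, per the labels. The authors deposited a table of read counts for each RefSeq transcript, and it was used as whole-number counts. BWA 0.5.9, SAMtools 0.1.17 and edgeR 0.19 are named, without a role, in the submitters' processing notes. Counter, strand setting, annotation and genome build: not given in the sources used here. Of the 29614 rows, 28985 were named through a RefSeq table, 173 through GENCODE, and 456 kept their accession. Transcript counts summed to between 3354828 and 6788049 in a library.

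Counts of 1 row per gene passed through filterByExpr and TMM scaling before a robust quasi-likelihood fit in edgeR 4.0.16, with a mean for each of the 4 groups, 4 degrees of freedom left for the spread and a common dispersion of 0.0133. Benjamini-Hochberg adjustment ran over 13966 genes, with 0.05 as the threshold. Log2 CPM used a prior count of 2. DESeq2 1.42.0 was an alternative. The 8 pathway genes and every list were chosen with earlier results of these data known. Named besides the 8 genes were Setd7, Ly6a, up to 4 genes of a list with the smallest p in a comparison, genes of a list too low to test, and the 3 nearest patterns. Nanog was added as a stem cell marker on the target list. Of the cell type markers, Utf1, Sox2, Cubn, Amn and Gata4 were also named. A gene of the target list is counted but not reported here by name. Between replicates, chi-square per degree of freedom ran from 1.54 (NTC) to 54.4 (mESC), so no pair of libraries agreed within sampling noise. Intervals and floors cover counting error only.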

Additional observations from a re-analysis of the deposited data

How the results depend on the processing

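Of 408 values of the 8 genes (3 comparisons, 17 alternatives), 361 kept their direction and their side of the threshold, 16 lost a call, 16 gained one and 15 changed sign, all of the last uncalled. In untreated Sca1 against mESC, 1 gene was lower with library totals, in the fit of the 2 groups and with DESeq2, and 1 was higher in the fit of the 2 groups. In the knock-down against NTC, 1 gene was higher with library totals and with DESeq2, and 6 in the fit of the 2 groups, where 4416 genes of the table were called, against 1225 with DESeq2 and 1998 in the main analysis. In NTC against untreated Sca1, dropping the filter on low counts gave 1 gene higher and 1 lower (1148 genes called). Leaving out each library in turn gave 1 to 3 genes higher, 1 to 2 lower and 3777 to 5695 called in all for untreated Sca1 against mESC, 1 to 3 higher, 0 lower and 648 to 2826 in all for the knock-down against NTC, 0 to 1 higher, 0 to 1 lower and 57 to 1517 in all for NTC against untreated Sca1, and 11 to 23 differences over the 6 pairs, with 11 and 12 without knock-down replicate 1 and 2. The 648 came without knock-down replicate 2 and the 57 without NTC replicate 1. Signs that changed: in untreated Sca1 against mESC, Acvr2b was 0.0066 with library totals and 0.00050 with DESeq2, and over the left-out libraries it ran from -0.47 to 0.38, Lefty2 from -0.23 to 0.19 and Nodal from -0.081 to 0.55; in the knock-down against NTC, Acvr2b ran from -0.22 to 0.016 and Smad2 from -0.030 to 0.092; in NTC against untreated Sca1, Lefty2 was 0.087 with library totals and Tdgf1 was -0.0022 in the fit of the 2 groups, and over the left-out libraries Lefty2 ran from -0.22 to 0.20, Tdgf1 from -0.15 to 0.22 and Acvr1b from -0.058 to 0.67. The cause of these changes was not tested. With library totals the median of all genes in NTC against untreated Sca1 moved to 0.10, and the share of calls that were higher went from 77.8% to 96.5% there and from 29.7% to 18.3% in the knock-down against NTC.

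With the replicate block on the number in the titles, the 19 differences called over the 6 pairs stayed 19 in number, and each of the 3 comparisons called the same pathway genes as without it. With the replicate block on the library code, 21 were called, Nodal and Acvr2b were higher in NTC than in untreated Sca1 cells (2 genes, and 1261 genes in all), and Nodal was also higher in the knock-down than in NTC (adjusted p = 0.0394). Deviations of same-numbered libraries correlated at 0.33 for mESC with untreated Sca1 and at 0.18 for NTC with knock-down over 10413 genes; same-numbered libraries in these pairs also share the library code, and the labels do not say what either stands for. With 2 pairs in a comparison the numbers were not taken to pair the libraries. Gene totals under 5080266 counts leave low genes such as Inhba and Cer1 untested.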
